A study of Mus musculus with 6 samples.

Results

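Tight junctions seal the space between neighbouring epithelial or endothelial cells. The genes described here encode 7 claudins (Cldn1, Cldn2, Cldn3, Cldn5, Cldn7, Cldn12 and Cldn14), occludin (Ocln) and the scaffold protein ZO-1 (Tjp1). They were chosen by symbol, not by any measured value, and make up 9 of the 50600 genes in the deposited tables. All 9 were among the 14314 genes expressed highly enough to be tested. RNA of whole liver from C57BL/6 mice aged 1 month was sequenced in 6 libraries. The Dicer LKO group (n = 3) carried floxed Dicer alleles and a Cre transgene driven by the promoter of albumin, a gene of hepatocytes. The control group (n = 3) carried the floxed Dicer alleles without the Cre transgene according to the genotype label, although the series design calls these mice wild type. Other cell types of the liver are not expected to express this Cre, so the libraries mix hepatocyte RNA with RNA of cells that keep Dicer, and nothing in the labels shows that replicates came from separate animals.

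Claudins are small membrane proteins whose outer loops pair across the cell border, where some form a barrier and others form selective pores. Occludin runs beside them in the same strands, and ZO-1, a protein with PDZ domains, tethers the strands to the actin cytoskeleton. In liver, the tight junction between hepatocytes separates the bile canaliculus from the blood side, and the bile duct epithelium and the endothelium have claudins of their own. Dicer cuts miRNA precursors into mature miRNAs, which bind messenger RNAs mainly through a short stretch at their 5′ end called the seed. The comparison of Dicer LKO with control livers asks which messenger RNAs differ when hepatocytes lack that enzyme.

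Because Dicer makes miRNAs, the 3′ untranslated regions of the 9 genes were searched for sites of 16 miRNA seed families that are common in liver. Not every family common in liver was among the 16. The miRNAs shown are the 4 with repeated sites in a gene of the set, with the seed (bases 2 to 8) in capitals, from RefSeq's table for GRCm38.p6.
mmu-let-7a-5p: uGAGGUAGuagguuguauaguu
mmu-miR-194-5p: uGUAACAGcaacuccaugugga
mmu-miR-29a-3p: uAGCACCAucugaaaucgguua
mmu-miR-15a-5p: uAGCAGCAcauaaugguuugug

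A site was the exact reverse complement of the seed, read on the messenger RNA strand only, in the longest annotated 3′ untranslated region of the gene (GENCODE M21, GRCm38). The let-7a motif CTACCTC occurred in 8.96% of 20971 genes with such a region, the miR-194 motif CTGTTAC in 9.33%, the miR-29a motif TGGTGCT in 13.04% and the miR-15a motif TGCTGCT in 20.1%. In the stretches below, written 5′ to 3′ along the messenger RNA, capitals mark the letters that pair with the seed. Single miR-15a sites in Cldn2 and Cldn12 are not printed. Cldn1 and Cldn12 lie on the minus strand at chr16:26356642-26371841 and chr5:5489537-5514958, and Ocln lies on the minus strand at chr13:100496507-100552718.
Cldn1, miR-194 site at chr16:26358430-26358456: ctttttcagaCTGTTACtctgaggttt
Cldn1, miR-194 site at chr16:26357147-26357173: acccttcctaCTGTTACaccctagttt
Cldn1, miR-29a site at chr16:26357699-26357725: ggcctcttgtTGGTGCTgttttgtttt
Cldn1, miR-29a site at chr16:26357572-26357598: atttgcatctTGGTGCTatcacttaat
Cldn1, miR-15a site at chr16:26358810-26358836: gcctgtgaacTGCTGCTtccctctgag
Cldn1, miR-15a site at chr16:26358203-26358229: tgagtggctgTGCTGCTaaccctgttg
Cldn12, let-7a site at chr5:5507156-5507182: ttgctatcttCTACCTCattccaggga
Cldn12, let-7a site at chr5:5506381-5506407: tatacctattCTACCTCtgaagctaag
Cldn12, miR-194 site at chr5:5505252-5505278: catagaatttCTGTTACccagctttgg
Ocln, miR-29a site at chr13:100496892-100496918: ttttccaacgTGGTGCTaccactgcag

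Cldn1 and Cldn12 each matched 5 of the 16 families, against a mean of 1.89 families over all genes with an annotated region. Their untranslated regions are long, at 2396 bases in Cldn1 and 2676 bases in Cldn12, against a median of 954 bases. In Cldn12 the miR-15a and miR-103 motifs overlapped each other, as did the miR-93 and miR-19b motifs in Cldn1. Cldn5 matched 3 families, Ocln matched 2, and Cldn2 and Tjp1 matched 1 each. Cldn3, Cldn7 and Cldn14 held none of the 16 motifs in untranslated regions of 368, 168 and 206 bases. A match describes letters in a window and does not show that a miRNA binds there.

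The 6 libraries held 14141973 to 25049749 counts. Levels per library are given as CPM (counts scaled to a common library size), in the order of replicates 1, 2 and 3 of each group. Dicer1 itself measured 28.9, 31.2 and 24.4 CPM in Dicer LKO livers and 42.5, 69.3 and 56.1 CPM in control livers. Its groups did not overlap, yet its log2 fold change of −0.99 did not pass the threshold (edgeR quasi-likelihood test, adjusted p = 0.0622). Of all tested genes, 106 were higher and 79 lower in Dicer LKO at an adjusted p under 0.05. Control replicate 3 had the fewest counts and the largest mitochondrial share, 10.2%, against 4.62% to 6.46% in the other libraries.

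None of the 9 genes passed the test in Dicer LKO against control livers: 0 of 9 were called, against 1.29% of all tested genes. At an unadjusted p under 0.05, 2 of 9 genes (Cldn7 and Cldn14) were counted, both with higher values in Dicer LKO, against 21% of all tested genes in either direction and 8.88% with higher values. The same 2 genes had groups that did not overlap, against 28% of all tested genes in either direction and 12.7% with higher values in Dicer LKO. The count of 2 is near the background share of either direction. The median log2 fold change of the 9 genes was 0.06, against −0.01 over all tested genes, and the median of the 9 became −0.05 when libraries were scaled by their totals alone and −0.06 on the deposited TPM. DESeq2 and voom with limma also called 0 of the 9 genes.

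**Figure D1:**
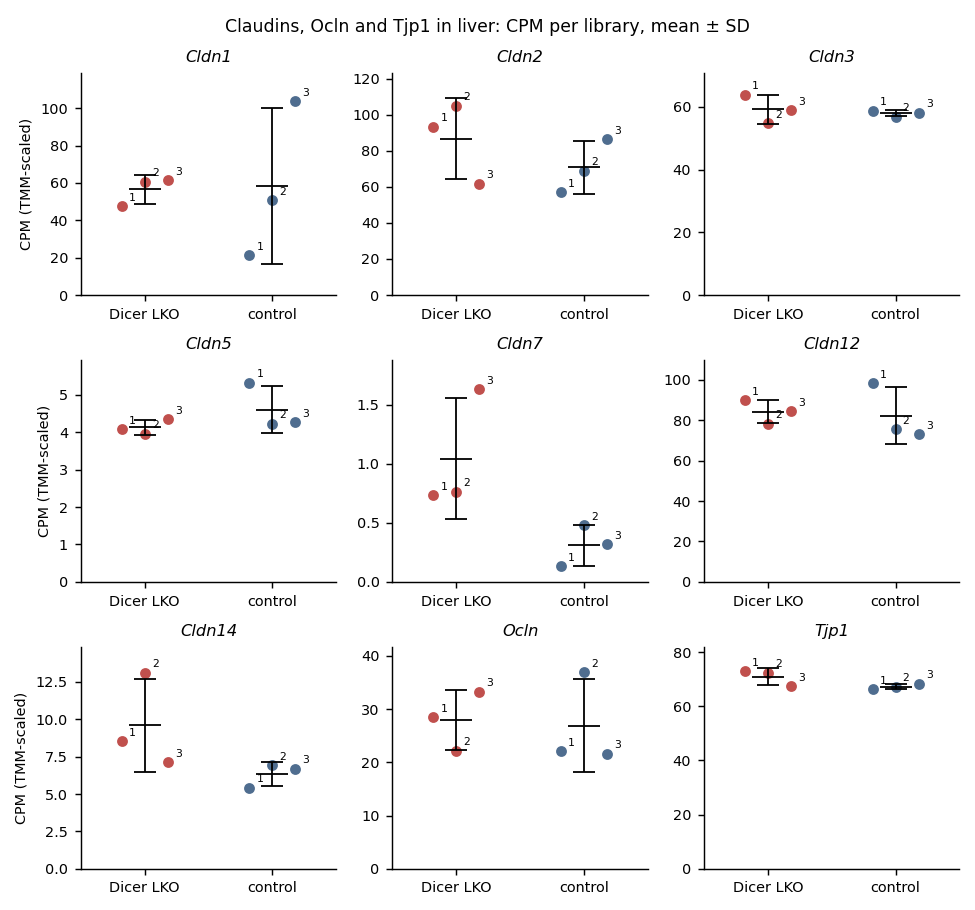
CPM of the 9 genes (vertical axes, from 0) in Dicer LKO libraries at the left and control libraries at the right of each panel; points are single libraries with their replicate number, and the bars show the mean ± SD (n = 3 each). Only the Cldn7 and Cldn14 panels show 3 Dicer LKO points above all 3 control points, and control replicates of Cldn1 span 21.3 to 104 CPM.

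Per unit of transcript length, Cldn3 was the most abundant of the 9, and its range lay above that of every other one. TPM (transcript abundance corrected for length and scaled to a common total by the authors) of Cldn3 ran from 32.7 to 41.2 over the 6 libraries, with a mean of 38.7 ± 3.26 (SD, n = 6 libraries). Cldn12 followed at a mean of 20.7 TPM, Cldn2 at 19.4 TPM and Cldn1 at 13.3 TPM. The ranges of these last 3 genes overlapped from neighbour to neighbour, so their order is not resolved. Tjp1 averaged 7.65 TPM, Ocln 7.06 TPM and Cldn14 4.86 TPM, and neighbours in this stretch overlapped too. Cldn5 averaged 2.53 TPM and Cldn7 0.54 TPM, and each of them stood apart from the gene above it.

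Transcripts of all claudins together came almost wholly from the 7 claudins of the set. The tables list 35 claudin genes and pseudogenes, of which 16 were at 0 in every library. Summed claudin TPM was 105, 97.7 and 98.9 in Dicer LKO livers and 95.2, 93.0 and 118 in control livers, and the groups overlapped. The 7 claudins gave 98.2% to 99.0% of that sum in Dicer LKO and 98.9% to 99.2% in controls. Cldn3 alone gave 37.4% ± 3.46 in Dicer LKO and 39.4% ± 3.996 in controls (SD, n = 3 each). The share of Cldn7 was 0.839% ± 0.343 in Dicer LKO and 0.241% ± 0.169 in controls (SD, n = 3 each), and it was the only one of the 7 whose groups did not overlap.

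**Figure D2:**
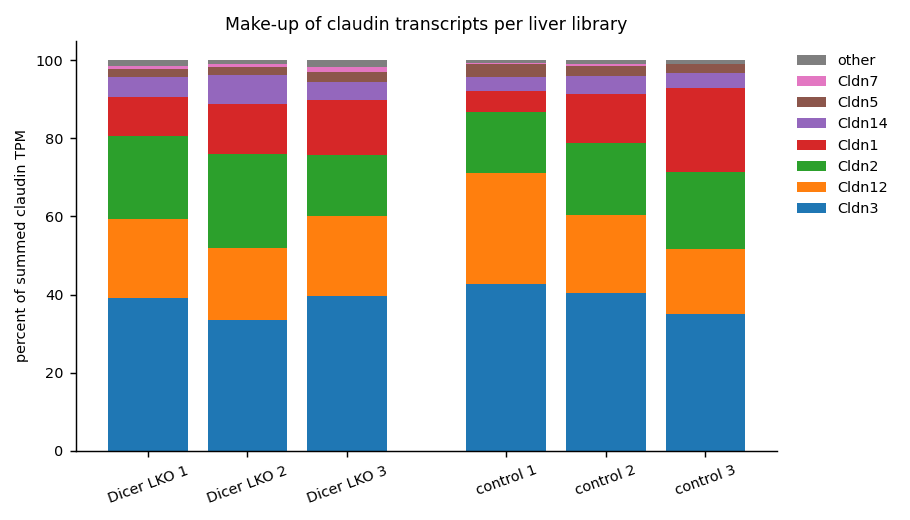
Share of each claudin (percent of summed claudin TPM, vertical axis) in the 3 Dicer LKO libraries at the left and the 3 control libraries at the right; each colour is a claudin and the grey cap is every claudin outside the set. Cldn3 is the largest band in all 6 libraries, and the Cldn1 band is narrowest in control replicate 1 and widest in control replicate 3.

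Among the claudins that seal, Cldn3 is a barrier-forming claudin of hepatocytes and bile ducts. It lies at chr5:134986214-134987472 (GRCm38, plus strand), where an antisense gene, Wbscr25, overlaps it, and the strand setting of the counts is not known. Cldn3 measured 63.8, 54.8 and 59.0 CPM in Dicer LKO livers and 58.8, 56.9 and 58.2 CPM in control livers. The groups overlapped and the controls lay inside the Dicer LKO range. A log2 fold change of 0.03 ± 0.12 (SE) was fitted, and its 95% interval ran from −0.24 to 0.30 (edgeR adjusted p = 0.911), that is, from 0.846 to 1.23 times the control level.

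Cldn1 encodes a sealing claudin of hepatocytes, known in human liver as an entry factor of hepatitis C virus. It measured 47.6, 60.7 and 61.4 CPM in Dicer LKO livers and 21.3, 50.8 and 104 CPM in control livers. The Dicer LKO libraries sat close together and inside the span of the controls, whose highest value was 4.87 times their lowest. Its log2 fold change of −0.05 ± 0.53 (SE) had an interval of −1.34 to 1.24 (edgeR adjusted p = 0.972). Without control replicate 3 it was 0.66 (edgeR adjusted p = 0.450), and without Dicer LKO replicate 1 it was 0.07 (edgeR adjusted p = 0.974), so its sign depended on single libraries.

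Cldn1 was not alone in its spread over libraries. By root mean square difference of log2 CPM centred over the 6 libraries, chosen for Cldn1 after its values were seen, the closest of 10776 genes was Tjp3 (0.141), which encodes the scaffold ZO-3. Tjp3 measured 14.2, 22.1 and 17.2 CPM in Dicer LKO livers and 7.35, 18.5 and 34.0 CPM in control livers. Next came Wnt5a, which encodes a secreted Wnt ligand, at 0.185 and Eps8l2, which encodes an actin-binding protein, at 0.198. Cgn, which encodes the junction plaque protein cingulin, and Nectin1, which encodes an adhesion protein, were also highest in control replicate 3, at 51.5 and 95.7 CPM.

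The same library stood apart in genes of the daily clock, which were looked at after the Cldn1 values were seen. Arntl, which encodes the clock activator BMAL1, measured 1.83, 12.2 and 2.39 CPM in Dicer LKO livers and 1.17, 2.02 and 28.1 CPM in control livers. Dbp, a clock output gene, measured 72.6, 8.53 and 95.1 CPM in the Dicer LKO replicates and 105, 82.1 and 2.04 CPM in the control replicates. Control replicate 3 and Dicer LKO replicate 2 thus had the highest Arntl and the lowest Dbp of their groups. The 13 heart muscle markers summed to 21.4 to 27.9 CPM in Dicer LKO and to 22.9 to 99.3 CPM in controls, with control replicate 3 highest. Of these markers 10 were tested and 0 called, and the defining markers Myh6, Actc1 and Myl2 were at 0 in Dicer LKO replicates 1 and 2. The lower heart signal in Dicer LKO was not limited to the contrast with control replicate 3. The log2 fold change was negative in 9 of the 10 and positive in 1, with a median of −2.16. Groups did not overlap in 6 that were lower and 1 that was higher in Dicer LKO, against 28% of all tested genes in either direction. The part of the clock genes, the heart markers and the mitochondrial share in the Cldn1 result was not tested. Without control replicate 3 and Dicer LKO replicate 2, the log2 fold change of Cldn1 was 0.60 (edgeR adjusted p = 0.608).

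**Figure D3:**
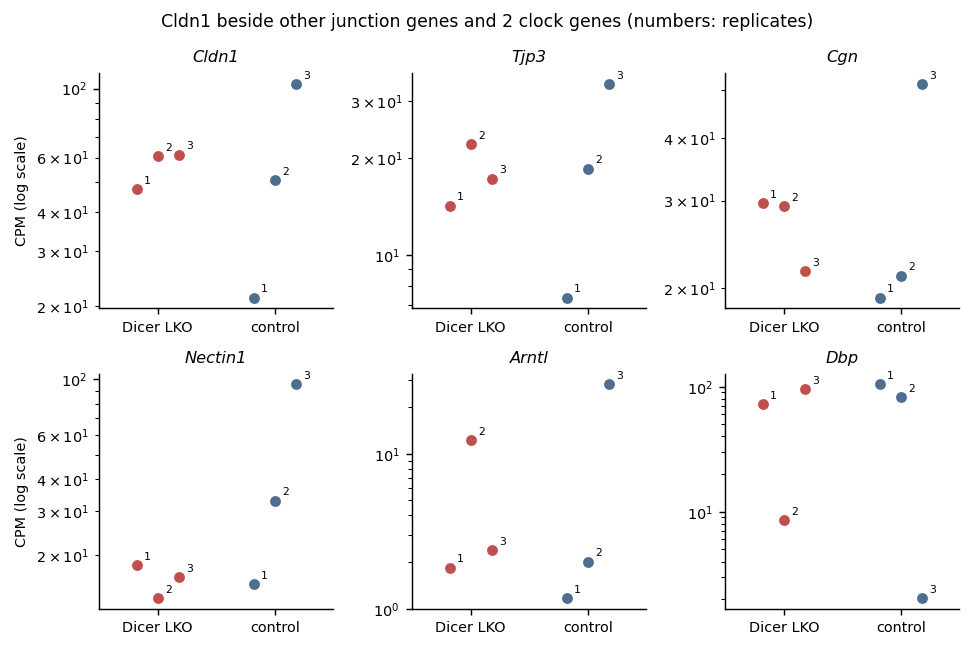
CPM on log axes of Cldn1, of the junction genes Tjp3, Cgn and Nectin1 and of the clock genes Arntl and Dbp, with Dicer LKO libraries left and control libraries right; points are single libraries with their replicate number. Control replicate 3 is the highest point for Cldn1 (104 CPM), Tjp3 (34.0 CPM), Cgn (51.5 CPM), Nectin1 (95.7 CPM) and Arntl (28.1 CPM) and the lowest for Dbp (2.04 CPM).

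Cldn2, at chrX:139800828-139811386 on the plus strand, forms pores for cations and water and is known in liver from hepatocytes and bile ducts. It measured 93.4, 105 and 61.7 CPM in Dicer LKO livers and 57.1, 68.9 and 86.4 CPM in control livers. Dicer LKO replicates 1 and 2 lay above all controls, but Dicer LKO replicate 3 lay among them. Its log2 fold change of 0.29 ± 0.23 (SE) had an interval of −0.24 to 0.83 (edgeR adjusted p = 0.516).

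Cldn12 is a claudin without the PDZ-binding end of most others, known in intestine for its part in calcium uptake. It measured 89.7, 78.2 and 84.4 CPM in Dicer LKO livers and 98.2, 75.5 and 73.0 CPM in control livers. The Dicer LKO values all lay within the control range. Its log2 fold change of 0.03 ± 0.16 (SE) had an interval of −0.33 to 0.39 (edgeR adjusted p = 0.931). The interval of Cldn12 was narrower than that of Cldn1. Any part of the repeated let-7a motif in the Cldn12 result, or of the repeated motifs of Cldn1 in its result, was not tested.

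Cldn14 encodes a claudin found in the inner ear, kidney and liver, and its loss causes deafness in people. The gene lies at chr16:93919031-94008837 on the minus strand. It measured 8.53, 13.1 and 7.13 CPM in Dicer LKO livers and 5.41, 6.92 and 6.70 CPM in control livers. The groups did not overlap, though Dicer LKO replicate 3 was only just above the highest control. The log2 fold change was 0.60 ± 0.25 (SE), a fold of 1.51 with an interval of 1.02 to 2.25. It missed the threshold (edgeR p = 0.0433, adjusted p = 0.223), and an exact two-sided permutation test gave p = 0.1, the smallest that 3 against 3 allows.

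Genes with the pattern most like that of Cldn14 over the 6 libraries, by the same measure, were Cyp2c70 (0.0801), which encodes an enzyme that makes muricholic acids in mice, Kdm3a (0.0853), which encodes a histone demethylase, and Mif4gd (0.0965), which encodes a translation factor partner. All 3 were highest in Dicer LKO replicate 2 as Cldn14 was, with Cyp2c70 at 523, 868 and 506 CPM in Dicer LKO livers and 373, 462 and 409 CPM in control livers. Saa1, which encodes an acute phase protein and was not named by a set rule, was also highest in that library. It measured 1837, 8448 and 1589 CPM in Dicer LKO and 28.8, 2911 and 10.1 CPM in controls. Dicer LKO replicate 2 was also the Dicer LKO library whose clock genes stood apart. The part of Saa1 or of the clock genes in the Cldn14 result was not tested. Without Dicer LKO replicate 2 the log2 fold change of Cldn14 was 0.35 (edgeR adjusted p = 0.447), lower than with any other single library left out. With control replicate 3 left out as well, the log2 fold change of Cldn14 was 0.34 (edgeR adjusted p = 0.552).

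Cldn5, at chr16:18776847-18778262 on the plus strand, is the main claudin of endothelium and is best known from the blood-brain barrier. It measured 4.08, 3.95 and 4.34 CPM in Dicer LKO livers and 5.32, 4.23 and 4.27 CPM in control livers. The groups overlapped, and control replicate 1 alone was above all Dicer LKO libraries. Its log2 fold change of −0.16 ± 0.19 (SE) had an interval of −0.60 to 0.28 (edgeR adjusted p = 0.677). In whole liver, fewer cells of a type and less RNA per cell cannot be told apart. All 19 endothelial markers were tested, and 1 rose (Vwf, which encodes von Willebrand factor) and 0 fell. Over all tested genes 0.741% were called higher and 0.552% lower. The log2 fold change was positive in 11 of the markers and negative in 8. Their summed level was 811 to 905 CPM in Dicer LKO and 716 to 830 CPM in controls.

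Cldn7, at chr11:69964779-69967885 on the plus strand, belongs to lateral membranes of many epithelia, and in liver it is known from bile ducts rather than hepatocytes. It had 16, 16 and 41 counts in Dicer LKO livers and 3, 10 and 5 counts in control livers. That equals 0.734, 0.762 and 1.63 CPM in Dicer LKO and 0.135, 0.480 and 0.319 CPM in controls. Every Dicer LKO library was above every control library, with Dicer LKO replicate 3 farthest above. The log2 fold change was 1.75 ± 0.55 (SE), a fold of 3.36 with an interval of 1.38 to 8.15. It did not pass the threshold (edgeR p = 0.0137, adjusted p = 0.140; exact two-sided permutation p = 0.1). Only 1 control library reached the filter's level of 0.45 CPM, against all 3 Dicer LKO libraries, so Cldn7 entered the test through the group where it was high and could hardly have entered without a difference.

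Several other epithelial genes of the bile duct were higher in the same libraries as Cldn7. The marker lists read here were chosen with earlier results of these data known. Of 17 bile duct markers 15 were tested, and 6 (Epcam, Spp1, Cftr, Cd24a, Slc5a1 and Ehf) rose and 0 fell in Dicer LKO at an adjusted p under 0.05, against 0.741% higher and 0.552% lower over all tested genes. The log2 fold change was positive in 12 of the tested markers and negative in 3. The summed level of the 17 markers was 262 to 430 CPM in Dicer LKO and 109 to 124 CPM in controls, and no marker was at 0 in every library. However, 1 marker was at 0 in every control library, so it could enter the test only through the Dicer LKO group. Epcam, which encodes an epithelial adhesion protein that binds claudin-7, measured 5.73, 3.72 and 7.85 CPM in Dicer LKO livers and 1.49, 0.864 and 0.701 CPM in control livers. It rose by 2.48 ± 0.38 on the log2 scale (SE, edgeR adjusted p = 0.0348). Krt19, a keratin of ducts, measured 1.97, 1.33 and 2.39 CPM in Dicer LKO and 0.541, 0.144 and 0.638 CPM in controls, with a log2 fold change of 2.12 that missed the threshold (edgeR adjusted p = 0.0817). By contrast, Sox9, which encodes a transcription factor of ducts, had a log2 fold change of −0.55 (edgeR adjusted p = 0.463), and Pkhd1, which encodes the duct cilium protein fibrocystin, had 0.42 (edgeR adjusted p = 0.398). Some markers of other cells outside the hepatocyte were higher as well. Of 12 stellate cell and fibroblast markers 3 rose, with positive log2 fold changes in 9 and negative ones in 3. Their summed level was 589.8 to 661 CPM in Dicer LKO and 422 to 493 CPM in controls. Of 10 macrophage markers 2 rose, with positive log2 fold changes in all 10 (348 to 469 CPM in Dicer LKO and 183 to 346 CPM in controls). In either list 0 were called lower. Not every such list went this way: 1 of 19 endothelial and 0 of 5 tested mesothelial markers were called, and 9 of 10 tested heart muscle markers had negative log2 fold changes. The part of duct cells and of these other cells in the Cldn7 result was not tested.

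Cldn4, a claudin of ducts and other epithelia that is no member of the set, had too few counts to enter the test. It had 18, 6 and 27 counts in Dicer LKO livers and 2, 2 and 0 counts in control livers, so the groups did not overlap. DESeq2, which tested it, gave an adjusted p of 0.0303, and edgeR without the filter on low counts gave an adjusted p of 0.0501. In the 5 edgeR fits with libraries left out in which it passed the filter, the adjusted p was 0.0764 to 0.172. Every control library lay under the filter's level of 0.45 CPM. Cldn4 thus entered those fits through the group where it was high and could hardly have entered without a difference. The genes closest to Cldn7 over the 6 libraries were Pak1 (0.270), which encodes a kinase of the actin cytoskeleton, Ctgf (0.308), which encodes a matrix-associated growth factor, and Tlr7 (0.329), which encodes an RNA sensor. Their distances were larger than those of the genes closest to Cldn14, but the part of the low counts of Cldn7 (3 to 41 a library) in this was not tested. The search covered only genes with an average log2 CPM of 1 or more, so duct genes as low as Cldn4 could not be found by it.

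**Figure D4:**
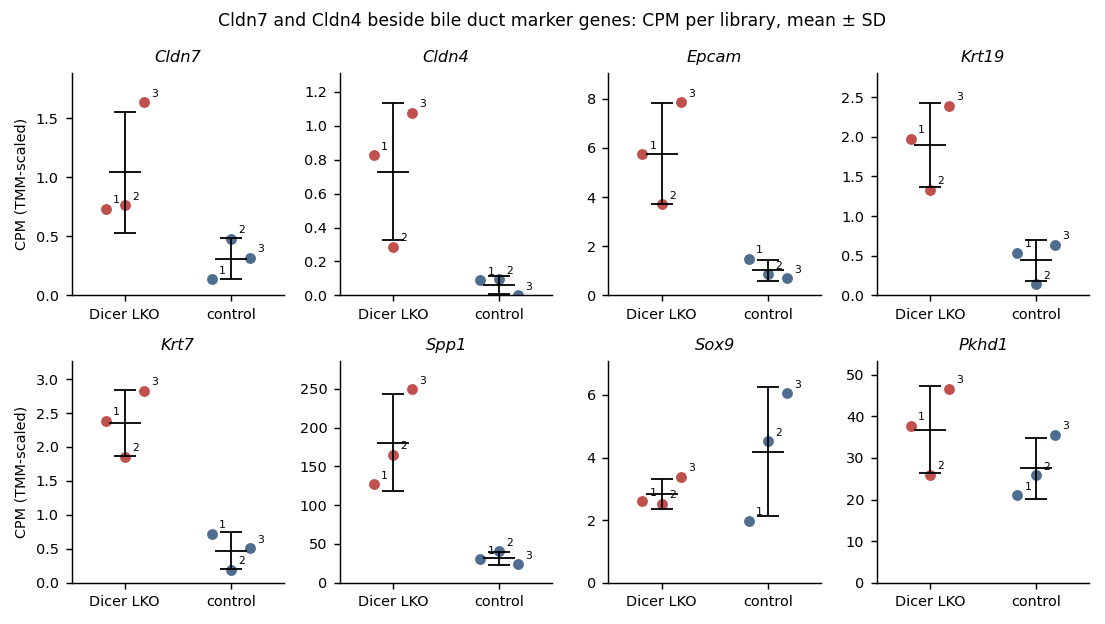
CPM (vertical axes, from 0) of Cldn7, Cldn4 and 6 bile duct markers, with Dicer LKO libraries left and control libraries right; points are single libraries with their replicate number and bars show the mean ± SD (n = 3 each). Cldn7, Cldn4, Epcam, Krt19, Krt7 and Spp1 have all Dicer LKO points above all control points, while Sox9 and Pkhd1 overlap.

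Ocln encodes occludin, a membrane protein of the MARVEL family. It measured 28.5, 22.2 and 33.3 CPM in Dicer LKO livers and 22.1, 36.9 and 21.6 CPM in control livers. The groups overlapped throughout, and the highest of the 6 values was that of control replicate 2. Its log2 fold change of 0.06 ± 0.25 (SE) had an interval of −0.52 to 0.63 (edgeR adjusted p = 0.926).

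Tjp1, at chr7:65296165-65527781 on the minus strand, encodes ZO-1 and had, beside Cldn3, the smallest SEs of the set. Annotated genes that overlap it number 3, and the strand setting of the counts is not known. It measured 73.1, 72.5 and 67.4 CPM in Dicer LKO livers and 66.3, 67.2 and 68.3 CPM in control livers. Dicer LKO replicates 1 and 2 were above all controls and Dicer LKO replicate 3 was among them. Its log2 fold change of 0.08 ± 0.11 (SE) had an interval of −0.18 to 0.34 (edgeR adjusted p = 0.741).

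The other genes of the junction were read from lists chosen with earlier results of these data known. Of 22 further claudin and claudin-domain genes measured, only Cldnd1 and Cldn34c1 were tested, and edgeR called 0 of them, with 0 at an unadjusted p under 0.05. DESeq2 called 1, Cldn4. By edgeR the log2 fold changes were −0.03 for Cldnd1 and 0.09 for Cldn34c1, whose value is uncertain because near-identical copies may share its reads.

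Of 14 other membrane proteins of tight junctions 12 were tested and edgeR called 0, with 4 at an unadjusted p under 0.05, all higher, against 8.88% higher over all tested genes. Their median log2 fold change was 0.19. DESeq2 called 4 and voom called 2, all higher in Dicer LKO. The most abundant was Lsr, which encodes angulin-1 of contacts between 3 cells. Lsr measured 149, 187 and 157 CPM in Dicer LKO livers and 111, 121 and 91.2 CPM in control livers, and its groups did not overlap (log2 fold change 0.61, edgeR adjusted p = 0.106). Cxadr, which encodes the coxsackievirus and adenovirus receptor, had a log2 fold change of −0.01 (edgeR adjusted p = 0.986). Named after their values were seen, Jam2, which encodes a junctional adhesion molecule, had 0.69 (edgeR adjusted p = 0.0636), Marveld3, a relative of occludin, had 1.34 (edgeR adjusted p = 0.0773) and Clmp, which encodes a related adhesion molecule, had 1.92 (edgeR adjusted p = 0.136).

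Of 31 scaffold and polarity genes 29 were tested, with 0 called higher and 1 called lower, against 0.552% lower over all tested genes. At an unadjusted p under 0.05, 4 were lower, against 12.1% lower over all tested genes, which is a similar share. Their median log2 fold change was −0.11. The called gene was Pard3b, which encodes a relative of the polarity protein PAR3. Pard3b measured 7.11, 8.10 and 5.74 CPM in Dicer LKO livers and 15.4, 15.5 and 21.1 CPM in control livers, with no overlap. It fell by 1.31 on the log2 scale (SE 0.20, edgeR adjusted p = 0.0330). The call was lost when any library other than control replicate 1 was left out (adjusted p = 0.0536 to 0.118), while the log2 fold change stayed between −1.39 and −1.12. Further, 11 annotated genes overlap it, antisense ones among them, so its counts are uncertain.

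Of 17 adherens and gap junction genes, all tested, 1 rose and 0 fell, against 0.741% and 0.552% over all tested genes. The gene that rose was Gja1, which encodes the gap junction protein connexin 43, found in liver mainly outside hepatocytes. Gja1 measured 12.5, 14.2 and 10.7 CPM in Dicer LKO livers and 5.68, 6.92 and 5.55 CPM in control livers, with no overlap. It rose by 1.04 on the log2 scale (SE 0.17, edgeR adjusted p = 0.0423), and the call was lost when any 1 library was left out (adjusted p = 0.0552 to 0.135), while the log2 fold change stayed between 0.98 and 1.17. Nectin1, named after its values were seen, measured 18.3, 13.5 and 16.3 CPM in Dicer LKO and 15.3, 32.9 and 95.7 CPM in controls. DESeq2 called Nectin1 lower (DESeq2 adjusted p = 0.0364), while edgeR did not (edgeR adjusted p = 0.248), and its groups overlapped. Of 12 genes of the bile canaliculus, all tested, edgeR called 0. At an unadjusted p under 0.05, 1 was higher and 2 were lower, against 8.88% higher and 12.1% lower over all tested genes. DESeq2 and voom called 1 lower each, Abcc2 (DESeq2 adjusted p = 0.0022, voom adjusted p = 0.0493). Abcc2, which encodes the canalicular export pump MRP2, measured 437, 309 and 447 CPM in Dicer LKO and 669.5, 738 and 672 CPM in controls (log2 fold change −0.80, edgeR adjusted p = 0.0952), and Abcb11, the bile salt export pump, had a log2 fold change of −0.01 (edgeR adjusted p = 0.984).

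**Figure D5:**
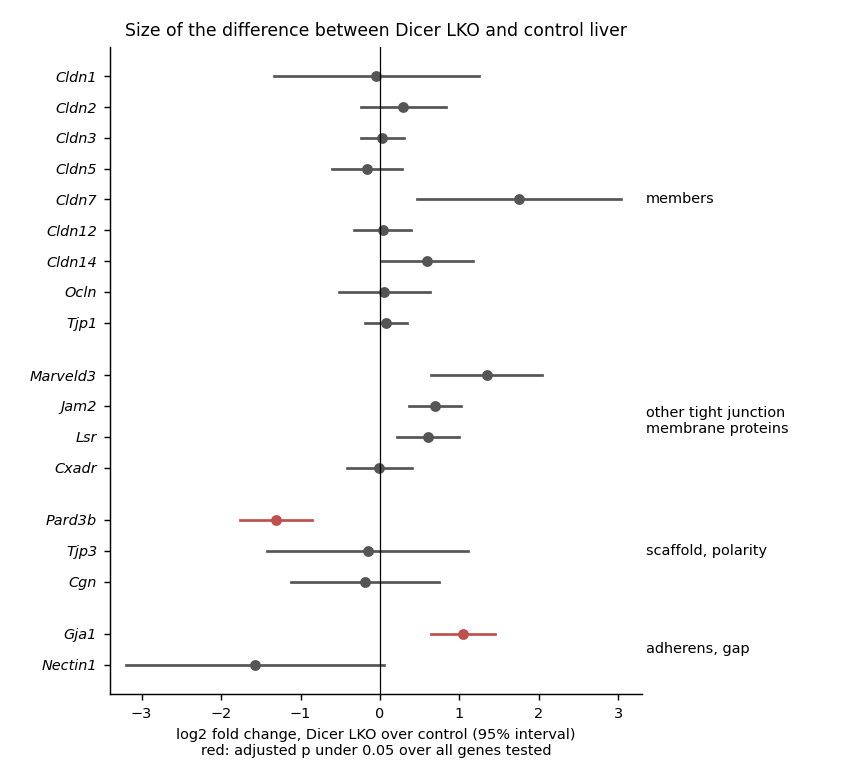
Log2 fold change of Dicer LKO over control (horizontal axis) with its 95% interval for the 9 genes of the set and for other junction genes named in the text; red marks an adjusted p under 0.05. The intervals of 7 of the 9 genes of the set cross 0, those of Cldn7 (0.47 to 3.03) and Cldn14 (0.02 to 1.17) do not, and only Pard3b and Gja1 are red.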

How the data were processed

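RNA of whole liver was sequenced in 3 Dicer LKO and 3 control samples, grouped and numbered by their titles. The authors deposited, per gene and sample, an expected count (an estimated, not normalized number of reads), a TPM value and gene lengths; per the file headers these are RSEM's columns. The submitters' processing notes list CASAVA and Bowtie with no version and name a human build, hg19, beside mouse gene identifiers; which mouse build, annotation and strand setting applied is not given in the sources used here. Of the identifiers, 50376 (99.56%) matched GENCODE M21 (GRCm38), the source of coordinates and 3′ untranslated regions. Beside Cldn3, Tjp1 and Pard3b, annotated genes also overlap Cldn14, Tjp3, Cxadr, Jam2, Lsr, Nectin1, Abcb11, Arntl and Dbp. This adds uncertainty to their counts. A deposited table of the whole series was not used.

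The deposited expected counts were rounded (96.0% to 96.5% were whole), filtered with filterByExpr (minimum count 10, about 0.45 CPM in 3 libraries), scaled by TMM, and compared by the quasi-likelihood test of edgeR 4.0.16 (robust setting, R 4.3.3) with no term but genotype. P-values were adjusted by Benjamini-Hochberg over all 14314 genes tested, and genes were called under 0.05. They measure the spread between samples, which may be partly technical. The SE is the size of the log2 fold change over the square root of F. Likeness used log2(CPM + 0.1) in genes whose average log2 CPM was 1 or more. The pipeline was tested on simulated data. Alternatives were DESeq2 1.42.0, voom with limma 3.58.1 and log2(TPM + 0.1), other scalings, no filter, a replicate block and leaving out libraries. No library pair held identical values (0 of 15), and the lowest chi-square per gene was 23.8. Same-numbered libraries correlated at 0.11, 0.06 and −0.10, so the numbers were not treated as pairs. Figures were drawn with matplotlib 3.10.9 in Python 3.11.15.

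All 9 genes were named, as was each called gene of a junction list or, with none called, its 2 most abundant genes; of the cell type lists, markers that moved with one of the 9 were named; likeness was read for the 2 genes with the lowest p. The genes and lists were chosen with earlier results of these data known. Depth limits precision for genes as low as Cldn7, Cldn4 and Cldn34c1. One marker gene of the lists is not reported here by name.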

Additional observations from a re-analysis of the deposited data

How the results depend on the processing

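In 126 fits under 14 alternatives, 0 of the 9 genes were called (lowest edgeR, DESeq2 or limma adjusted p 0.108, for Cldn7). Cldn2, Cldn5, Cldn7 and Cldn14 kept their direction in all 14: Cldn7 ranged from 1.26 to 2.26 on the log2 scale and Cldn14 from 0.34 to 0.78. The groups of Cldn7 and Cldn14 did not overlap, so leaving out libraries could hardly have reversed them. Estimates near 0 changed sign, and the cause was not tested beyond the scaling itself. Scaling by library totals, which moved the median of all genes by −0.12, gave Cldn3 −0.087, Cldn12 −0.080, Ocln −0.046, Tjp1 −0.045 and Cldn34c1 −0.014. The deposited TPM, which moved that median by −0.11, gave Cldn1 0.099, Cldn3 −0.087, Cldn12 −0.12, Ocln −0.063 and Tjp1 −0.099. Voom gave Cldn1 0.045, Ocln −0.071, Cxadr 0.16, Cldn34c1 −0.081, Abcb11 0.021 and Cgn 0.15, and no filter gave Cxadr 0.0054 and Abcb11 0.0032. The replicate block, under which 149 genes were higher and 96 lower, called 0 of the 9 and gave Cldn1 0.22, Cxadr 0.013, Abcb11 0.013 and Tjp3 0.068. Under it Pard3b and Gja1 stayed called (edgeR adjusted p = 0.0469 and 0.0465). The calls of cell type markers, such as Epcam and Vwf, were not followed through the alternatives. Leaving out 1 library gave Cldn1 −0.45 to 0.66, Cldn3 −0.023 to 0.12, Cldn12 −0.022 to 0.18, Ocln −0.083 to 0.38, Cxadr −0.12 to 0.19, Cldnd1 −0.21 to 0.13, Cldn34c1 −0.28 to 0.92, Abcb11 −0.18 to 0.17, Tjp3 −0.55 to 0.48 and Cgn −0.43 to 0.43. Without Dicer LKO replicate 2 and control replicate 3, an alternative chosen after seeing the data, Cldn1 was 0.60, Cldn12 −2e-04, Cxadr 0.19, Cldn34c1 −0.40, Abcb11 0.21, Tjp3 0.28 and Cgn 0.34.

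Calls over all genes, higher and then lower in Dicer LKO (106 and 79 by edgeR), were 50 and 53 with library totals, 207 and 215 with no filter, 493 and 621 by DESeq2, 221 and 496 by voom, 38 and 36 on TPM, 31 and 13 without the 2 libraries named above, and 15 to 76 and 7 to 313 with 1 library left out. In the junction lists, Gja1's call fell to 0 with library totals, on TPM and without those 2 libraries, and Pard3b's to 0 on TPM and without those 2; with 1 library left out Gja1's list had 0 and Pard3b's 0 to 1. Membrane proteins had 1 higher with no filter, 4 by DESeq2 and 2 by voom. By DESeq2 the other claudins had 1 higher, the scaffolds 2 lower, the adherens and gap junction list 1 lower, and the canaliculus 1 lower, as by voom. Depth limits low genes such as Cldn7 and Cldn4, with 0 to 41 counts a library.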

Other observations

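Claudins near the detection limit, which failed the filter on low counts, include Cldn6, Cldn8, Cldn15 and Cldn23; edgeR without that filter called none of them. Cldn8, known from the kidney's collecting duct, measured 0.963, 0.333 and 0.876 CPM in Dicer LKO replicates 1, 2 and 3 and 0.406, 0.048 and 0.319 CPM in control replicates 1, 2 and 3, and the groups overlapped. Cldn6, a claudin of embryonic epithelia, measured 0.275, 0.143 and 0.996 CPM in Dicer LKO and 0.090, 0.144 and 0.128 CPM in controls, with Dicer LKO replicate 3 apart from the rest. A count of 3 in a library corresponds to 0.120 to 0.143 CPM in Dicer LKO and 0.135 to 0.191 CPM in controls, so several of these values are at or under that level.

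Among the adherens and gap junction genes, the libraries of the groups did not overlap in 3 genes that were higher and 5 that were lower in Dicer LKO, of 17 tested. The lower ones include Dsp, Dsg2 and Dsc2, which encode desmosomal proteins, while the desmosomal genes Pkp2 (log2 fold change 0.27) and Jup (−0.0045) overlapped. Dsp measured 115, 111 and 99.1 CPM in Dicer LKO replicates 1, 2 and 3 and 118.5, 138 and 133 CPM in control replicates 1, 2 and 3. Dsg2 measured 135, 91.9 and 121 CPM in Dicer LKO and 148, 147 and 158 CPM in controls. None of the 3 passed the test (edgeR adjusted p = 0.324 for Dsp, 0.249 for Dsg2 and 0.317 for Dsc2), and they were named after their values were seen. Over all tested genes 28% had groups that did not overlap.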
